A study of Homo sapiens with 12 samples.

Results

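Always-open regions at gene ends are stretches of accessible chromatin that carried an ATAC-seq peak in every library of the series and whose strongest summit lay within 1 kb of an end of a protein-coding gene. Joining every peak on chromosomes 1 to 22 and X that shared at least 1 bp with another, over the 12 libraries, gave 166523 regions. Of these, 16630 were open in all 12 libraries, and 6942 of those 16630 met the distance rule (41.7%, exact Clopper-Pearson 95% interval 41.0 to 42.5%, counting error only). The other 9688 always-open regions lay away from gene ends and are the comparison set. Among the 53210 regions open in a single library the share near a gene end was 6.60%. The members were chosen by the presence of a peak in each library, the −log10 p of the summits and their distance to a gene end, so these shares are a description.

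All libraries came from MDA-MB-453, a long-established luminal breast cancer cell line that lacks estrogen receptor alpha (ER) of its own. In 3 derived lines an ectopic wild-type (WT), Y537S or K303R ER could be induced. Y537S is a ligand-binding domain mutation that keeps the receptor active without hormone, and K303R is a hinge region mutation described in breast lesions. The treatments, lasting 2 days, were none, estradiol (E2, 1 nM), doxycycline (Dox, 2 ug/mL), and Dox with E2, with 1 library per line and treatment and no replicate of any combination. All 3 lines carry an inducible receptor, and no library of cells without one enters the comparisons, so Dox itself and the induced receptor cannot be told apart. The labels do not say whether a line is 1 clone, nor which promoter drives the receptor.

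In ATAC-seq a transposase cuts DNA where nucleosomes are sparse. The start of an active gene is typically kept free of nucleosomes by general factors such as NF-Y, Sp1, ETS proteins, NRF1 and YY1, and stays accessible whether or not transcription changes. Accessibility at such housekeeping promoters therefore usually varies in degree and is seldom lost, whereas enhancers away from genes open and close with cell state. ER itself binds mostly at enhancers.

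Members lay close to gene starts. A RefSeq promoter table gave a start within 1 kb of the summit for 5483 members. The summit lay upstream of that start in 4274 of them (78.0%), at a median of -63 bp (quartiles -143 and -9 bp), and within 250 bp of it in 4327 (78.9%). Merged members were 1464 bp wide at the median, against 981 bp for always-open regions away from gene ends. The members named 6782 different nearest genes, and 1340 (19.3%) had ends of more than 1 gene within 1 kb. Among 10 luminal and epithelial genes, 7 had a member (KRT8, KRT18, EPCAM, GATA3, FOXA1, SPDEF and ERBB2). None of the 6 genes of other lineages looked up (PTPRC, CD3E, VIM, COL1A1, PECAM1 and ALB) had a member.

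The 250 bases before the annotated start are shown for 8 members the results turn on, as given by RefSeq for GRCh38.p14, the assembly family of the files' hg38 coordinates. They are 4 promoters among the most raised with Dox, overall or on chromosome 19 (DCAF15, NUP93, RPS21 and ZNF585B), 1 raised promoter of the stress response list (XBP1), the most lowered member with an annotated start (GCNT2), 1 promoter higher in the Y537S line (CEBPG) and the steadiest promoter of all (CRY1). Each runs 5′ to 3′ on the gene's own strand. Capitals mark matches, on either strand, to the short factor motifs searched.
DCAF15 chr19:13952259-13952508, plus strand: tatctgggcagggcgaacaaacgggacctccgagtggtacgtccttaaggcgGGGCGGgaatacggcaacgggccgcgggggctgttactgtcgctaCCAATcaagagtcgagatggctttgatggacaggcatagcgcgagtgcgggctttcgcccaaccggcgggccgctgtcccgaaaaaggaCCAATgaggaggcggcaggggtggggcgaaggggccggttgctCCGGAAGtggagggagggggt
NUP93 chr16:56729879-56730128, plus strand: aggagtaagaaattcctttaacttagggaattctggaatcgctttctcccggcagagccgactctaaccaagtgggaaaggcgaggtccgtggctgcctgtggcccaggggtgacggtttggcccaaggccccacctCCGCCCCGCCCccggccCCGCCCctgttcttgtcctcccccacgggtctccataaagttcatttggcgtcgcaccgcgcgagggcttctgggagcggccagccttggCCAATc
RPS21 chr20:62386853-62387102, plus strand: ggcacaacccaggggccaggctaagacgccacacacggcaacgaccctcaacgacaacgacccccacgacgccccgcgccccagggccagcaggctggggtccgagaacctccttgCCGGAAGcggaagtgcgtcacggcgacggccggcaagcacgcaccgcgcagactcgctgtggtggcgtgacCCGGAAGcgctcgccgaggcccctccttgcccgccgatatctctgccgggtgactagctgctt
ZNF585B chr19:37210537-37210786, minus strand: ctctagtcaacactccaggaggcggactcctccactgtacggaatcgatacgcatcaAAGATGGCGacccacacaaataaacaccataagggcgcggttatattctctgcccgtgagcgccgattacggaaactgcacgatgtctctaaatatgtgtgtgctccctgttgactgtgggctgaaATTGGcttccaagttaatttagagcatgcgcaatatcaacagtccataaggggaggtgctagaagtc
XBP1 chr22:28800570-28800819, minus strand: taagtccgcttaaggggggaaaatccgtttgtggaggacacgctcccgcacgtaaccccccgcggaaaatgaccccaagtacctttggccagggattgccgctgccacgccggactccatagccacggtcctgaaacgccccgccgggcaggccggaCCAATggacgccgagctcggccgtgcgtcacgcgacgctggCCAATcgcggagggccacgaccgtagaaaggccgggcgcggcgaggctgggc
GCNT2 chr6:10521101-10521350, plus strand: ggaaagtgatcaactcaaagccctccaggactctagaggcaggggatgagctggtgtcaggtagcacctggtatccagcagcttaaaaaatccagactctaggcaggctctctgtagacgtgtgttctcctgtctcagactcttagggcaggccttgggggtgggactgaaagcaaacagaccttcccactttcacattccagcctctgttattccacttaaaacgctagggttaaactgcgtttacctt
CEBPG chr19:33373459-33373708, plus strand: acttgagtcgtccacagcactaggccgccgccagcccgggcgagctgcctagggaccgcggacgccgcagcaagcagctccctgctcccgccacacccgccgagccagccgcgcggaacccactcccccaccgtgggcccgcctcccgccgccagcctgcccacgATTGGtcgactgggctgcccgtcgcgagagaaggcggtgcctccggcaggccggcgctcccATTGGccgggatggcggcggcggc
CRY1 chr12:107093550-107093799, minus strand: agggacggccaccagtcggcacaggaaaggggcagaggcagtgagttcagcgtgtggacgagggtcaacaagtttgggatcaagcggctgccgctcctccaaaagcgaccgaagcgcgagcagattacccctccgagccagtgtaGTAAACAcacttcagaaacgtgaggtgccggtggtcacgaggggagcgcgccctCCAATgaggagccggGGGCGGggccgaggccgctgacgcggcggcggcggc

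Capitals in these stretches are CCAAT (read by NF-Y; ATTGG on the other strand), GGGCGG (the GC box of Sp1 proteins), CCGGAAG (ETS), AAGATGGCG (YY1) and TGTTTAC (forkhead factors). DCAF15 holds 2 CCAAT matches, 1 GC box and 1 ETS match, and its summit lies 203 bp upstream of the start. NUP93 holds 3 GC boxes, 2 of them overlapping, and a CCAAT match that begins 6 bases before the start. RPS21 holds 2 ETS matches and neither a GC box nor CCAAT. XBP1 and CEBPG each hold 2 CCAAT matches, ZNF585B 1 YY1 and 1 CCAAT match, and CRY1 1 each of forkhead, CCAAT and GC box. GCNT2, with a GC share of 50.4%, holds none of the motifs searched. A match is a description of letters and is not a binding site.

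Over a window of 250 bases before and 50 after the start, the 5483 members with a matched promoter held more of the motifs of ubiquitous factors than all 22132 promoters of protein-coding genes. CCAAT was in 43.3% of members' promoters and 34.6% of all, GGGCGG in 75.9% and 56.3%, CCGGAAG in 23.2% and 12.8%, the NRF1 letters GCGCANGCG in 16.5% and 9.66%, and AAGATGGCG in 4.45% and 2.42%. Some letters of inducible or restricted promoters were rarer in members: TATAAA was in 4.67% against 9.46%, the AP-1 letters TGANTCA in 3.45% against 6.15%, and TGTTTAC in 2.02% against 2.85%. The CRE letters TGACGTCA went the other way, in 3.76% of members' promoters against 2.26% of all. A full palindromic estrogen response element was in 1 of the 5483 members' promoters and in 8 of all 22132. Both strands were searched, and the median GC share was 66.0% in members against 62.3% in all promoters.

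The value followed below is the fold enrichment the authors deposited for the strongest peak of a region in a library, divided by that library's median over the 16630 always-open regions. A value of 1 is thus the typical always-open region of its library. The libraries differed in depth: the median undivided fold of members was 8.75 in the untreated WT library and 9.02 in the untreated K303R library, 14 to 16.8 in the other WT and K303R libraries, and 22.7 to 29.2 in the 4 Y537S libraries. The summit of a median member rested on 9 to 38 fragments, and 1 fragment more or less moved its log2 value by 0.14 in the shallowest library and 0.04 in the deepest. The lowest summit of any member rested on 3 to 6 fragments by library, and 1 fragment moves such low values by more. Peak names carried 3 different tags: WT untreated, WT E2 and all K303R libraries shared a tag, WT Dox and WT Dox+E2 had another, and all Y537S libraries had the third. The peak names of the 4 Y537S libraries also hold the word trypsin, which the labels do not explain. In the WT line Dox and tag cannot be told apart, and neither can ER form, line and tag for Y537S.

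Members stood above the other always-open regions in every library, and the gap was widest with Dox. The median member was above its library's median by 0.15, 0.07, 0.22 and 0.36 (log2) in the WT line (untreated, E2, Dox, Dox+E2), by 0.17, 0.16, 0.31 and 0.31 in the Y537S line, and by 0.12, 0.09, 0.16 and 0.15 in the K303R line. Both Dox libraries exceeded both libraries without Dox in each of the lines. The step was small beside the spread among members, whose SD was 0.59 to 0.76 (log2) within a library.

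**Figure D1:**
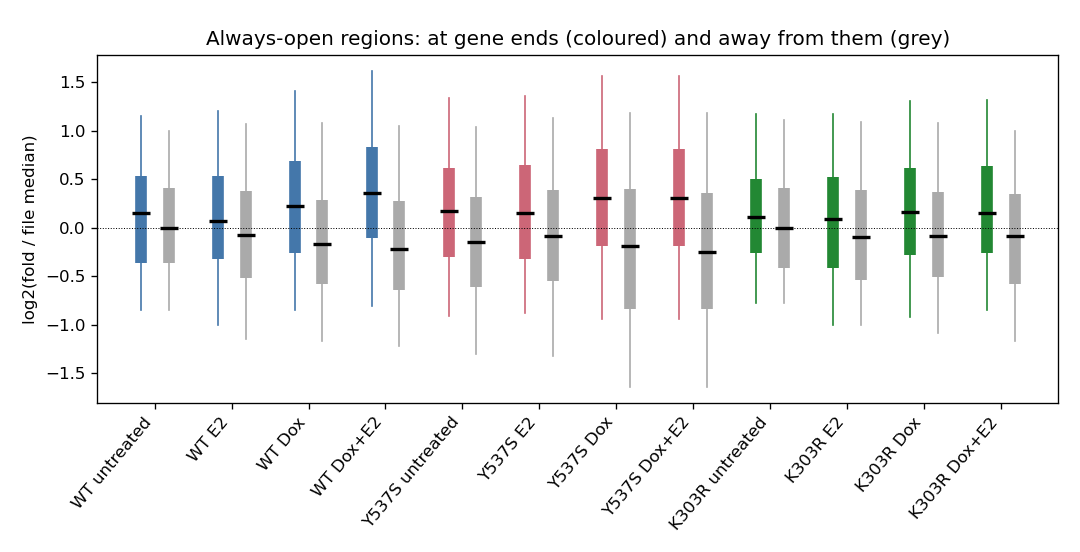
Values of members (coloured: blue WT, red Y537S, green K303R) and of always-open regions away from gene ends (grey) in each of the 12 libraries, as log2 of fold over the library's median. The black mark is the median, the thick bar the quartiles and the thin line the 5th to 95th percentile over regions; medians of members are highest in the Dox libraries of the WT and Y537S lines.

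Strong members kept a high value in every library. The region of JPT1, with its summit 147 bp upstream of the start (chr17:75152412-75155726), ran from 5.58 to 9.60 times the library median over the 12 libraries, and that of SRGAP2, a regulator of cell migration, from 4.78 to 8.80 times. DESI2, ELOC (elongin C), DDX42 (an RNA helicase), UBE2T (a ubiquitin-conjugating enzyme of the Fanconi pathway), IKBKG (the regulatory subunit of the NF-kappaB kinase), ATP5PD (an ATP synthase subunit) and ENY2 (a chromatin and mRNA export factor) followed with medians of 4.75 to 5.78. At the other end of variability, CRY1, a circadian repressor, stayed between 0.971 and 1.32 in all 12 libraries (SD 0.11, log2). EHD1, an endocytic recycling protein, and NUPR2 had SDs of 0.12. The members with the largest SD were COX8A (0.98), CISH (0.92) and RPL14 (0.92), and all 3 lie at the far end of their gene.

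Around the distance limit the values did not stand out. Just inside it lay the regions of LAMB3 (1000 bp from a gene end, median 1.24 times the library median), PHF12 (998 bp, 2.36) and PRLR (998 bp, 0.61), and just outside it those of PLXNA3 (1001 bp, 2.01), RAN (1004 bp, 1.10) and ASB4 (1005 bp, 0.81).

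With Dox, members were on balance slightly more accessible relative to the other always-open regions, and few were less accessible. The 6 libraries with Dox were compared with the 6 without by limma over all 16630 regions, with ER form and E2 as covariates and Benjamini-Hochberg adjustment. A region was called at an adjusted p under 0.05. The median log2 shift was 0.16 over members and -0.07 over regions away from gene ends, and 0.05 over all. Of the 6942 members 524 rose (7.55%, against 7.01% of all regions tested) and 73 fell (1.05%, against 9.34% of all). The share that rose was thus near the background, while the share that fell was below it; among the 9688 regions away from gene ends 1481 fell (15.3%). All 73 members that fell had estimates below 0 in each line, and 511 of the 524 that rose had estimates above 0 in each. The calls were made from the same libraries and favour members whose lines moved alike, so these counts are no separate check. Among all members 2511 (36.2%) had estimates above 0 in each line. The median shift by line was 0.21 in WT, 0.15 in Y537S and 0.10 in K303R, where the tag did not change with Dox in the latter lines.

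These counts depend on how libraries are scaled and on single libraries. Divided by the members' own median, 142 members rose and 178 fell, so 44.4% of calls were higher in place of 87.8%; with quantile normalization 234 rose and 71 fell (76.7% higher). Scaling by the median of all a file's peaks gave 64 and 6 and moved the median shift of all regions from 0.05 to 0.19. Without the WT line 84 rose and 29 fell. The number that rose was 221 without WT Dox+E2, 286 without WT E2, 288 without Y537S E2, 306 without Y537S Dox, 316 without Y537S Dox+E2 and 341 without untreated Y537S. The number that fell was 48 without untreated Y537S, 45 without Y537S Dox, and 42 without either Y537S E2 or Y537S Dox+E2. The difference between the medians of 2 groups of members within a library does not depend on its scale factor, but the counts of calls below do. A gene end that lost its peak in any library is not a member, so losses below the detection limit do not enter.

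Among the members that rose most, DCAF15, the substrate receptor of a cullin ubiquitin ligase (chr19:13951853-13952795), read 0.667, 1.00, 2.11 and 1.79 times the library median in WT untreated, E2, Dox and Dox+E2. It read 1.03, 1.23, 2.12 and 2.04 in Y537S and 1.00, 0.688, 1.47 and 1.11 in K303R. Within each line both Dox libraries were above both others, and the shift was 0.92 ± 0.17 (log2, SE; 1.89-fold; limma adjusted p = 0.000473). NUP93, a scaffold nucleoporin (chr16:56729765-56730732), went from 0.429 to 0.556 without Dox to 0.880 to 1.07 with it in the WT and Y537S lines. In K303R its values overlapped, at 0.917 and 0.5 without and 1.47 and 0.833 with Dox (shift 0.92 ± 0.20, limma adjusted p = 0.00173). LGALS1, galectin-1, a glycan-binding protein (chr22:37674547-37676568), ranged from 0.5 to 1.09 without Dox and from 1.12 to 2.12 with it, so that its 12 values did not overlap (0.99 ± 0.19, limma adjusted p = 0.000565).

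RPS21, a small-subunit ribosomal protein, rose by 0.88 ± 0.18 and KAT8, a histone acetyltransferase, by 0.90 ± 0.18 (limma adjusted p = 0.00109 and 0.000812). No annotated start was matched near the summits of KAT8 and LGALS1, and an end of PRSS8 also lies within 1 kb of the KAT8 summit. BLVRB, biliverdin reductase B, which shares its region with the start of SPTBN4, read 0.556 to 1.17 without Dox and 1.00 to 2.80 with it (0.90 ± 0.17). The other members of the 10 with the largest rise were COX8A (a cytochrome c oxidase subunit; 1.09 ± 0.33), FLCN (folliculin; 1.05 ± 0.24), ALS2CL (0.94 ± 0.22) and GATD1 (0.88 ± 0.19). In the 4 K303R libraries (untreated, E2, Dox, Dox+E2) FLCN read 0.583, 0.563, 0.588 and 0.611 and ALS2CL 0.583, 0.813, 0.706 and 0.722, without a step at Dox. COX8A was no longer called without WT E2, WT Dox+E2 or any of the 4 Y537S libraries (log2 shifts 0.82 to 0.95), nor without the whole Y537S line (0.37). FLCN and ALS2CL were not called without the WT or the Y537S line, and GATD1 was not without the Y537S line.

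Of the 10 members that fell most, 5 were at the far end of a gene. GDPD3, a lysophospholipase D for which no annotated start was matched (chr16:30104105-30105136), fell by 1.37 on the log2 scale (SE 0.24, limma adjusted p = 0.000231). It read 1.67 and 0.850 in WT without Dox and 0.278 and 0.571 with it, 1.47 and 1.69 against 0.360 and 0.440 in Y537S, and 1.00 and 1.31 against 1.00 and 0.611 in K303R. The far end of CISH, a suppressor of cytokine signalling (chr3:50606857-50608320), fell by 1.34, and that of RPL14, a large-subunit ribosomal protein, by 1.13. In Y537S Dox and Dox+E2, CISH read 0.400 and 0.240 and RPL14 0.240 and 0.440. Like the low GDPD3 values, these rest on few fragments. A median member rested on 30 in these Y537S libraries. The far ends of WDR6, ACSS1 (mitochondrial acetyl-CoA synthetase) and FAM240A fell by 1.03, 1.02 and 0.99.

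GCNT2, the enzyme that branches I-antigen glycans (chr6:10520628-10521604), has an annotated start near its summit. It read 1.03 to 1.55 in the 6 libraries without Dox and 0.400 to 0.833 in the 6 with it, without overlap (-1.04 ± 0.18, limma adjusted p = 0.000156). MRPL21, a mitochondrial ribosomal protein (chr11:68890020-68892024), fell by 0.91, from 1.69 to 2.58 without Dox to 0.920 to 1.83 with it; the K303R Dox+E2 value of 1.83 exceeds the Y537S E2 value of 1.69, so the groups overlap. No annotated start was matched near the MRPL21 summit. KLHL38 fell by 1.01 and ST3GAL1, a sialyltransferase, by 0.94, both on chromosome 8, where the kind of gene end was not determined. Across all members, 94 had every Dox library above every other (1.35%, against 1.49% of all regions) and 11 had every Dox library below (0.158%, against 1.58% of all). ACSS1, KLHL38, ST3GAL1 and MRPL21 were no longer called when files were scaled by the median of all their peaks, and ACSS1 and KLHL38 not without the WT line.

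**Figure D2:**
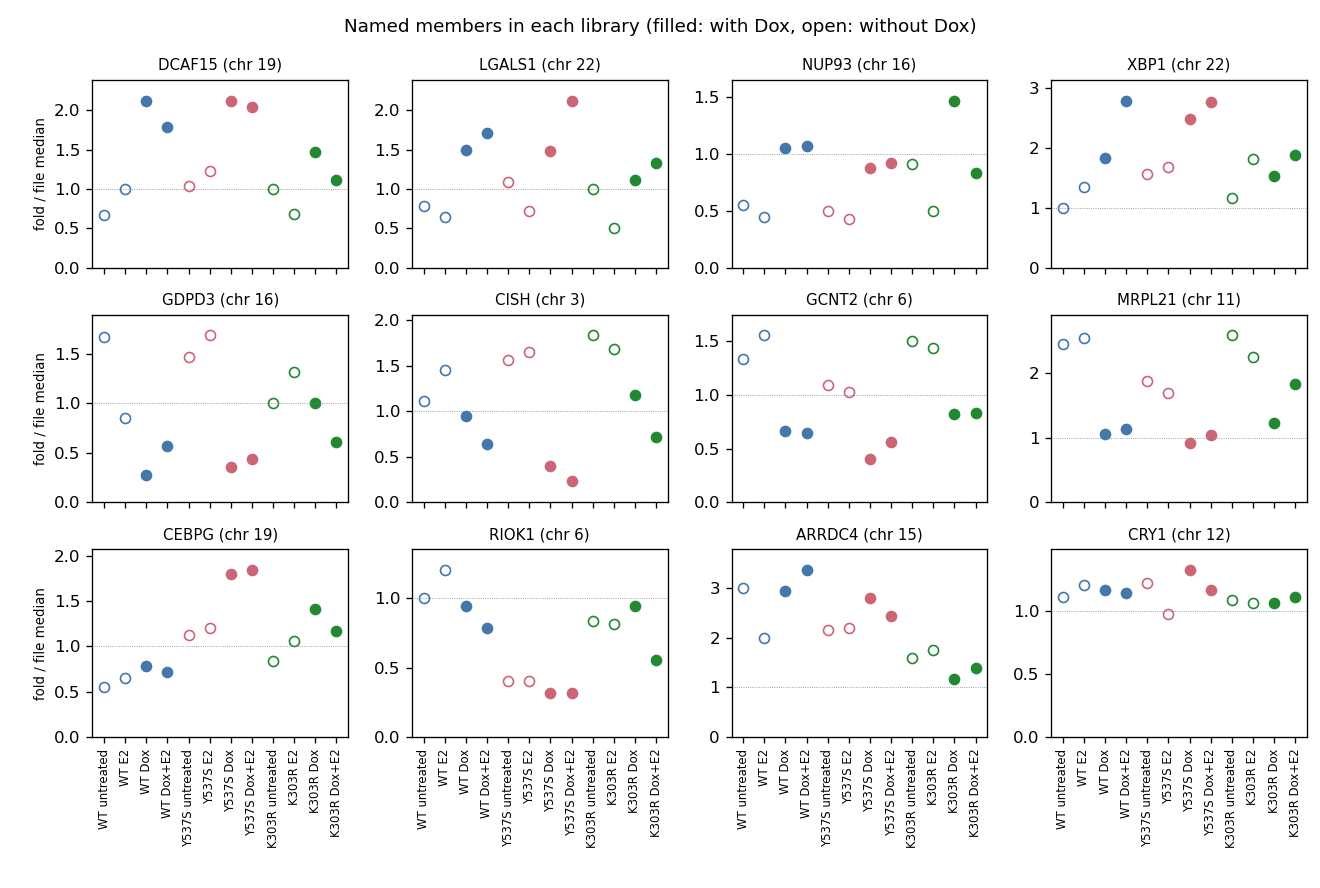
Fold over the library's median for 12 named members in each of the 12 libraries (blue WT, red Y537S, green K303R; filled points with Dox, open points without; each axis starts at 0, and the dotted line marks 1). DCAF15, LGALS1, NUP93 and XBP1 rose with Dox, GDPD3, CISH, GCNT2 and MRPL21 fell, CEBPG and RIOK1 differ between the Y537S and WT lines, ARRDC4 is lower in K303R, and CRY1 stays between 0.971 and 1.32.

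The split of calls varied with the kind of gene end. Of 4698 members with starts running in 1 direction, 334 rose (7.11%) and 29 fell (0.617%), with a median shift of 0.16. The 785 members with starts running in both directions, where divergent genes or start sites share a region, had 88 that rose (11.2%) and 1 that fell (0.127%), and a median of 0.21. The 262 members with only the far end of a gene nearby had 18 that rose (6.87%) and 28 that fell (10.7%), with a median of 0.04. Their share of falls was close to the 9.34% of all always-open regions. With scaling by all peaks, by the members' median, and quantile normalization, far-end rises numbered 6, 7 and 11 and falls 4, 44 and 29. Far-end members were also the weakest, with a median level of -0.12 (log2), against 0.15 and 0.31 for starts in 1 and in both directions. The strand was not used for 945 members without an annotated start near the summit, nor for the 252 of chromosome 8.

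The median shift was larger in stronger members. In 5 equal groups by mean level over the 12 libraries the median Dox shift was 0.03, 0.12, 0.16, 0.20 and 0.22 from the weakest to the strongest. The share that rose went from 1.58% in the weakest group to 17.0% in the strongest, while precision also grows with level. The mean level includes the Dox libraries, where the SD among members was wider than without Dox in every line. Level and shift are thus not independent, and the part of this in the trend was not tested. Promoter GC made less difference: the median shift was 0.18 in the group with the lowest GC share and 0.13 in the group with the highest. Members with CCAAT in the promoter had a median shift of 0.21 and 11.1% rose, against 0.13 and 5.12% without it. They were also the stronger members, at 1.27 against 1.04 times the library median. Within the strongest group 20.6% rose with CCAAT and 11.5% without, and in the weakest group 1.92% and 1.28%. Of the 244 members with the YY1 letters 13.1% rose, against 7.44% without. Among the 13 motifs searched, others went the opposite way: 1.80% rose with the forkhead letters against 7.82% without, 3.21% against 7.83% for CTCF letters, 4.04% against 7.76% for ZBTB33 letters, 5.46% against 7.96% for the E-box CACGTG, and 6.65% against 7.90% for NRF1 letters. These are descriptions of groups that share libraries and carry no test.

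Lists of functional groups held few calls each, to be read against the 7.55% of members that rose and the 1.05% that fell, and the 7.01% and 9.34% of all regions. The lists were chosen with earlier results of these data known. Among 53 members of cytosolic ribosomal protein genes 5 rose and 1 (RPL14) fell, with a median shift of 0.24; RPL13 was among those that rose (0.55 ± 0.18). Of 50 members of mitochondrial ribosomal protein genes, MRPL50 rose and MRPL21 fell (median 0.12). Among 24 proteasome members 3 rose and none fell (median 0.20), including the assembly chaperone PSMG1 (0.69 ± 0.21) and the regulatory subunit PSMD11 (0.47 ± 0.16). Of 11 members of complex I genes only NDUFB5 rose (0.51 ± 0.17). For comparison, the median over all 16630 regions was 0.05 and over all members 0.16. With scaling by all peaks, by the members' median, and quantile normalization, cytosolic ribosomal rises numbered 1, 1 and 3, and proteasome rises 0, 0 and 1. NDUFB5 was called under none of these scalings, MRPL50 only with quantile normalization and MRPL21 in all but the first.

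Of 20 members in the amino acid and mitochondrial stress list 4 rose and none fell (median 0.26). XBP1, a transcription factor of the unfolded protein response (chr22:28798614-28801220), read 1.00, 1.35, 1.83 and 2.79 in WT untreated, E2, Dox and Dox+E2, and 1.56, 1.69, 2.48 and 2.76 in Y537S. In K303R it read 1.17, 1.81, 1.53 and 1.89, so the treatments overlapped there (0.62 ± 0.15, limma adjusted p = 0.00447). LONP1, the mitochondrial matrix protease, rose by 0.59 ± 0.16. HSPA4, an HSP70 family chaperone, rose by 0.74 ± 0.20 among 45 chaperone members, of which 3 rose and none fell. JUN and FOSL2, subunits of AP-1, rose by 0.49 ± 0.14 and 0.44 ± 0.15, the only calls among 16 immediate early members. Under the 3 other scalings, in the order above, the stress list had 1, 2 and 3 rises, the chaperones 1 in each, and the immediate early list 0 in each, with 1 fall when scaled by the members' median. XBP1 and HSPA4 were called under each of the 3, and LONP1 in all but the first.

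Among 21 replication and cell cycle members 2 rose, including CDC20, an activator of the anaphase-promoting complex (0.51 ± 0.16). Of 38 histone members 3 rose, among them H3-3B (0.56 ± 0.14), which encodes the replication-independent histone variant, and H2AX (0.57 ± 0.17). Of 42 splicing members HNRNPC rose (0.38 ± 0.13). No member fell in these 3 lists. Under the 3 other scalings no cell cycle or splicing member was called higher, and histone rises numbered 0, 1 and 2.

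The luminal identity list had a median Dox shift of -0.15, against 0.16 over all members, and 8 of its 18 members had a shift above 0. The median was -0.01 with scaling by all peaks, where that of members was 0.29. Of the 18, 2 rose, XBP1 again and a luminal keratin, KRT18 (0.54 ± 0.19), and the far end of SPDEF, a luminal ETS factor, fell (-0.68 ± 0.19). Under the 3 other scalings the list had 1, 1 and 2 rises and 0, 3 and 2 falls. Of 23 members of estrogen response genes 1 rose (XBP1, which is on this list too) and none fell (median 0.10). The largest shift of each sign that was not called was 0.46 ± 0.17 for KDM4B, a histone demethylase (limma adjusted p = 0.0601), and -0.38 ± 0.21 for MYB (0.217). None of 12 interferon response members was called in either direction. When files were scaled by the members' median, the medians of the estrogen response and mitochondrial ribosomal lists fell to -0.03 and -0.01, and the members' median was then 0.03. Of 22 called members of the lists, 6 were called under each of the 3 other scalings and 7 under none; 6 were called without the WT line and 6 without the Y537S line. When single libraries were left out, HSPA4 lost its call without WT Dox+E2, SPDEF without untreated WT or WT Dox+E2, and JUN without WT Dox+E2 or Y537S E2. H2AX, PSMG1, CDC20, MRPL50, NDUFB5, FOSL2, HNRNPC, RPL13, KRT18 and PSMD11 each lost it without 4 to 10 different libraries.

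Chromosome 19 members had the largest median Dox shift of any chromosome. Its 425 members had a median shift of 0.32, and 78 rose (18.4%, against 7.01% of all regions) and none fell. With scaling by all peaks, by the members' median, and quantile normalization, 11, 19 and 34 rose, and 1 fell with the second of these. The median was 0.39 in the WT line, 0.37 in Y537S and 0.20 in K303R, the highest of all 23 chromosomes in each of the lines. The next were chromosome 20 (0.26), chromosome 21 (0.25, 54 members) and chromosome 16 (0.22), and the lowest were chromosomes 3 and 4 (0.09 each). Of the 425 members 383 had a shift above 0 (90.1%). Only 4 had every Dox library above every other (0.941%, against 1.35% of all members and 1.49% of all regions). No p is given, since a chromosome's median is a score over members that share libraries.

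**Figure D3:**
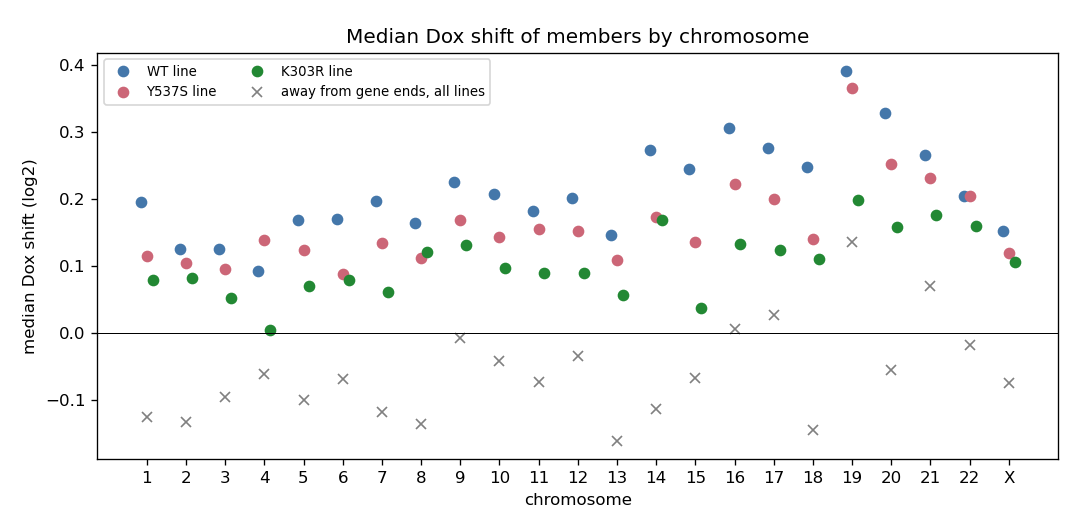
Median Dox shift (log2) of members on each chromosome in the WT (blue), Y537S (red) and K303R (green) lines, with the median over all lines for always-open regions away from gene ends (grey crosses). Chromosome 19 is highest in each line, at 0.39, 0.37 and 0.20, and its regions away from gene ends are also highest, at 0.13.

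By library, the median of chromosome 19 members against the median of all members was -0.32 and -0.30 (log2) in WT untreated and E2, and -0.14 and -0.08 in WT Dox and Dox+E2. It was 0 and 0 in Y537S without Dox and 0.22 and 0.26 with it, and -0.12 and -0.18 in K303R without Dox and -0.08 and 0 with it. The Dox libraries were thus higher in every line, and the untreated Y537S library stood above both WT Dox libraries. In K303R the step from untreated to Dox was smaller than 1 fragment at a median member (0.11 and 0.07 in these libraries). In WT the name tag changes with Dox as well. As fold over the library median, chromosome 19 members stood at 0.889 and 0.850 in WT without Dox and at 1.44 and 1.48 in Y537S with it.

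The chromosome 19 shift was not limited to a class of genes or to a range of GC or level. Its 106 zinc finger (ZNF) gene members, taken by symbol, had a median of 0.33 and the other 319 members 0.32. The 134 ZNF members on other chromosomes had a median of 0.18. Over all chromosomes 27 of 238 ZNF members rose and none fell, and 5, 7 and 17 rose under the 3 other scalings in the same order. The chromosome 19 median exceeded that of other members by 0.15 to 0.18 within each of 5 groups of equal promoter GC, and by 0.13 to 0.20 within each of 5 groups of equal level. Against all members the excess was 0.16, and 0.15 to 0.18 when any single library was left out. It was 0.13 without the Y537S line and 0.21 without the K303R line. The 5 chromosome 19 members that rose most were DCAF15, BLVRB, ZNF585B (0.84 ± 0.20), UBXN6 (0.83 ± 0.17) and PROSER3 (0.82 ± 0.17, sharing its region with HSPB6). No annotated start was matched near the UBXN6 summit. Without the WT line UBXN6 and PROSER3 were no longer called, and ZNF585B was not called without the K303R line. Always-open chromosome 19 regions away from gene ends had a median of 0.13, also the highest of any chromosome.

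E2 left no called difference at any always-open gene end. The fit had a single E2 term over all lines, with and without Dox. An E2 shift confined to libraries with the induced receptor was not tested separately. By limma, 0 of 6942 members rose and 0 fell (0% of all 16630 regions in either direction). The lowest adjusted p among members was close to 1, and 208 members (3%) had an unadjusted p under 0.05, 129 higher and 79 lower, against 3.36% of all regions. The median shift was 0.02, its 5th and 95th percentiles were -0.26 and 0.28, and the median SE of a member's shift was 0.18 (log2). A shift within that error was not detectable with 6 libraries against 6, and larger shifts could also go uncalled. The E2 shift of DENND1B, at -0.71 ± 0.23, was not called. No chromosome had a median E2 shift beyond -0.02 or 0.05.

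Calls between the Y537S and WT lines were spread unevenly over chromosomes. Over 4 libraries each, matched in treatment, 90 members were called higher in Y537S (1.30%, against 1.52% of all regions) and 51 lower (0.735%, against 3% of all). Of those, chromosome 19 gave 30 of the 90 higher calls and chromosome 14 gave 15, while chromosome 6 gave 22 of the 51 lower calls and no higher call. These counts depend on scaling: by the members' median they were 22, 12 and 30, and with quantile normalization 13, 3 and 4. With scaling by all peaks chromosome 6 had 15 higher calls and 1 lower. The median shift was -0.37 over the 416 members of chromosome 6, 0.34 over the 425 of chromosome 19 and 0.24 over the 290 of chromosome 14, against 0.05 over all members. Regions away from gene ends moved alike, by -0.43 on chromosome 6, 0.22 on 19 and 0.16 on 14.

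The chromosome 6 difference ran along the whole chromosome: the median in each of its 10 Mb windows lay between -0.27 and -0.43. The median of chromosome 6 members against all members was -0.47 to -0.56 (log2) in the 4 Y537S libraries and -0.07 to -0.24 in the 8 others. The 38 histone members, 29 of them on chromosome 6, had a median of -0.34. On chromosome 19 the ZNF members had a median of 0.42 and the others 0.31, while ZNF members elsewhere stood at 0.04.

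**Figure D4:**
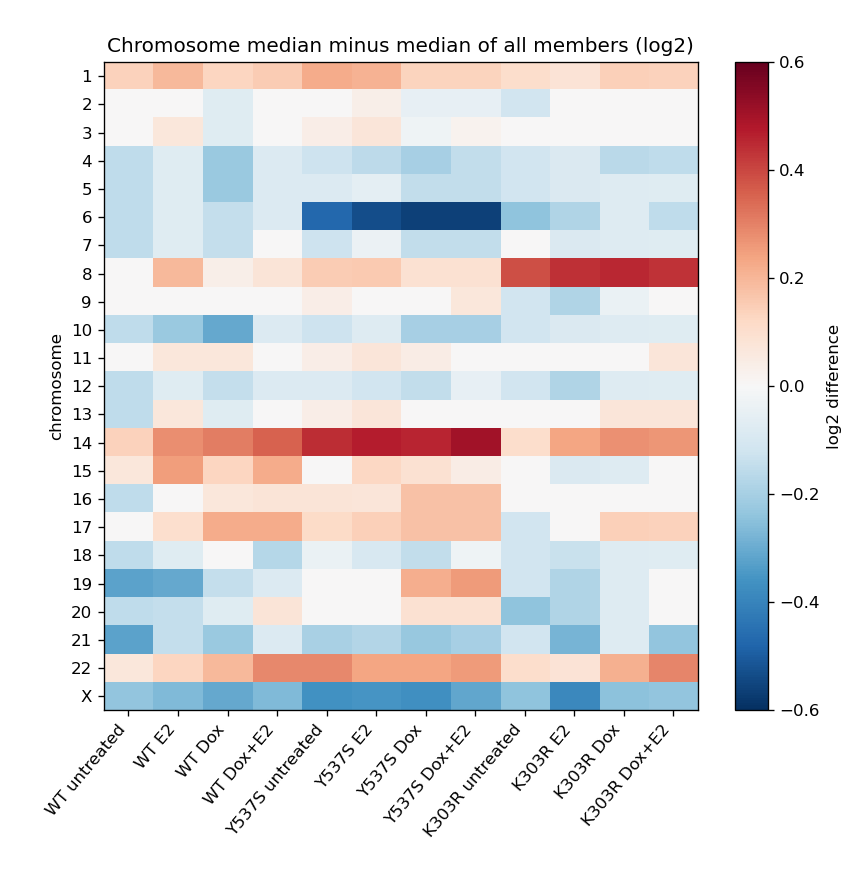
Median of the members of each chromosome minus the median of all members (log2), for each library, from -0.6 (blue) to 0.6 (red). Chromosome 6 is low in the 4 Y537S libraries, chromosome 8 is high in the 4 K303R libraries, and chromosome 19 moves up with Dox in each line.

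Single gene ends show the same lines apart. PISD, phosphatidylserine decarboxylase (chr22:31615139-31619243, far end, near SFI1), read 1.31 to 1.80 in the 4 Y537S libraries and 0.350 to 0.778 in the WT ones (1.5 ± 0.27, limma adjusted p = 0.00155). CEBPG, a bZIP transcription factor on chromosome 19 (chr19:33373020-33374392), read 1.12 to 1.84 in Y537S and 0.556 to 0.778 in WT (1.12 ± 0.21, limma adjusted p = 0.00214). Neither pair of groups overlapped. LRRC14, ADIRF and ZNF418 were higher by 1.17, 1.07 and 1.06; ADIRF was not called without WT E2, WT Dox, Y537S Dox or Y537S Dox+E2, nor ZNF418 without WT E2.

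Among members lower in Y537S, the far end of RIOK1, an atypical kinase of ribosome maturation on chromosome 6 (chr6:7418202-7418878), read 0.320 to 0.406 in Y537S and 0.786 to 1.20 in WT (-1.44 ± 0.24, limma adjusted p = 0.000955). The far end of DNAJC17 read 0.360 to 0.543 in Y537S against 0.929 to 1.67 in WT (-1.46 ± 0.25). CAMP (cathelicidin), RYR3 (a ryanodine receptor) and DENND1B had log2 shifts of -1.37, -1.36 and -1.35. DNAJC17, CAMP, RYR3 and DENND1B were not called with scaling by all peaks, DENND1B not with quantile normalization, and CAMP not without untreated WT or Y537S Dox. The 90 higher calls became 35, 32 and 39 without untreated WT, WT E2 and WT Dox, and 53, 23 and 28 without untreated Y537S, Y537S Dox and Y537S Dox+E2. The 51 lower calls became 17, 20, 32 and 26 without the 4 WT libraries in the order untreated, E2, Dox and Dox+E2, and 17 and 23 without Y537S Dox and Dox+E2. With scaling by all peaks, 2905 members were called higher and 1 lower, and the members' median moved from 0.05 to 0.68; chromosome 6 then stood at 0.26.

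Few single members were called between K303R and WT. By limma 2 were called higher (0.0288%, against 0.0782% of all) and 2 lower (0.0288%, against 0.0241% of all), and 163 and 468 had an unadjusted p under 0.05 in these directions. HELZ, an RNA helicase, read 1.81 to 3.18 in K303R and 0.700 to 1.67 in WT (0.96 ± 0.20, adjusted p = 0.0453). PLEKHF2, an endosomal protein on chromosome 8, was higher by 0.95 ± 0.20. ARRDC4, an arrestin-domain protein (chr15:97960104-97961642), read 1.18 to 1.75 in K303R and 2.00 to 3.36 in WT (-0.93 ± 0.18, adjusted p = 0.0446), and PGBD4, which shares its region with EMC7, had a shift of -0.87. Each of the 4 lost its call without at least 1 library, and HELZ and PGBD4 without any single one of the 8 WT and K303R libraries.

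Differences shared along chromosomes were smaller than the shifts of these 4 members but covered many more members. The 252 members of chromosome 8 had a median of 0.27, which came from the part above 30 Mb (240 members, 0.28), while the 12 members below 30 Mb stood at 0.00. Chromosome 10 was split at 80 Mb, with -0.11 over 111 members below and 0.20 over 150 above. The 206 members of chromosome 15 stood at -0.30, against -0.07 over all members. Over the whole of chromosomes 8, 10 and 15, regions away from gene ends gave 0.41, 0.19 and -0.17, where members gave 0.27, 0.07 and -0.30. By library the median of chromosome 8 members against all members was 0.39 to 0.45 in the 4 K303R libraries and 0 to 0.19 in the 4 WT libraries. Untreated and E2 libraries of WT and K303R share a name tag, where WT stood at 0 and 0.19 and K303R at 0.39 and 0.44.

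**Figure D5:**
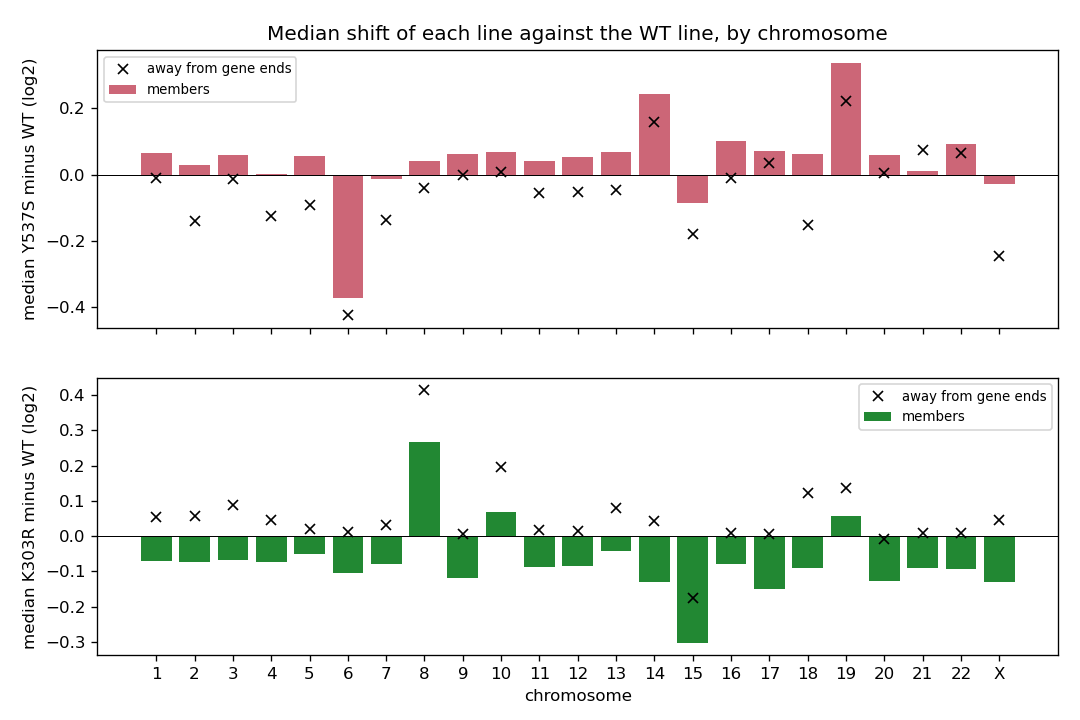
Median shift (log2) of members on each chromosome in the Y537S line (top) and the K303R line (bottom) against the WT line, as bars from 0, with always-open regions away from gene ends as crosses. Chromosome 6 stands at -0.37 and chromosome 19 at 0.34 in Y537S, and chromosome 8 at 0.27 and chromosome 15 at -0.30 in K303R.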

How the data were processed

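The series holds 12 ATAC-seq libraries, sequenced as 75 bp paired ends per the labels' protocols, with 1 peak list each. The submitters' processing notes name hg38 and MACS2, Bowtie2, Picard, SAMtools and FastQC; their versions, settings and any shift for the transposase cut were not given in the sources used here. In the deposited lists the fold is a ratio, with 1 added to both summit pileup and background, and pileups recovered from it came out whole to within 0.000709. The −log10 p and −log10 q values deposited by the authors served to choose the strongest summit and to filter. Folds are the authors' values for single peaks.

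Each region's largest fold per file was divided by the file's median over the 16630 regions open in all files and put on a log2 scale with no pseudocount. limma 3.58.1 (R 4.3.3, trend on level) fitted ER form, Dox and E2 with 7 residual degrees of freedom, and ER form by Dox with E2 with 5; Benjamini-Hochberg adjustment covered all 16630 regions. Labels do not say that libraries are separate cultures of a group, and with 1 library per combination the spread comes from treatments and lines taken as additive, so p-values measure only that spread. The fit was run on simulated data with independent noise, the same SD for every region and no library or tag effect. It cannot show how such effects alter the calls, and most of the smaller shifts added there went uncalled.

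Gene ends were read from RefSeq's GRCh38.p14 gene table, which has no strand; starts and promoter sequences came from RefSeq's promoter table. Named members are the 10 strongest, the 10 largest called shifts of each sign for Dox, 5 of each for other contrasts and for chromosome 19, the 3 with the smallest and largest SD, the 3 on either side of 1 kb, and up to 4 per gene list. Some of these are not reported here. The members, lists and groupings were chosen with earlier results of these data known. Alternatives were other scalings, filters, distances, leaving out each library or line, and a block of the 6 Dox pairs matched on line and E2.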

Additional observations from a re-analysis of the deposited data

Results flagged for a closer look

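The Dox shift differed between lines at 20 members by limma's test of the ER form by Dox terms (adjusted p under 0.05), 0.288% of members against 1.79% of all always-open regions. The far end of COX8A shifted by 0.88 (log2) in WT, 2.52 in Y537S and -0.13 in K303R (adjusted p = 0.0233). Its value in untreated Y537S was 0.1875 times the library median, which rests on few fragments. The far end of CISH shifted by -0.70, -2.38 and -0.93 (adjusted p = 0.0419). Others, chosen here after their values were seen, were CA12, a carbonic anhydrase, whose start read 1.34 and 1.49 without Dox and 2.72 and 2.60 with it in Y537S and shifted by -0.40, 0.91 and -0.51 in the 3 lines, and STING1, an innate immune adaptor (-0.24, -1.38 and 0.32). In WT the tag of the library names changes with Dox, and its part was not tested. The count was 0 without untreated Y537S, Y537S E2, Y537S Dox or untreated K303R, 2 without Y537S Dox+E2 or K303R Dox, 8 without K303R Dox+E2, and 41 and 39 without WT E2 and WT Dox+E2.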

How the results depend on the processing

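The chromosome 19 Dox shift kept its sign under each alternative run, with an excess over all members of 0.145 to 0.175 when a library was left out, 0.13 and 0.21 without the Y537S and K303R lines, and 0.178 with the −log10 q filter. The E2 counts were 0 under each alternative (0 to 0 without a library). The number of members was 6931 to 7960 without a library and 2541 with a −log10 q of 10 or more in every file. Called Dox rises numbered 221 to 653 and falls 42 to 84 without a library. With scaling by all peaks, by the members' median, and quantile normalization, rises were 64, 142 and 234; falls were 6 and 178 with the first and second of these. The −log10 q filter left 126 rises and 43 falls, leaving out WT 84 and 29, leaving out Y537S 88 and 17, and a limit of 2500 bp gave 146 falls. Y537S higher calls numbered 23 to 117 and lower calls 17 to 60 without a library; with scaling by all peaks they were 2905 and 1, with quantile normalization 35 and 17, and with the −log10 q filter 27 and 26, and 89 lower calls were made within 2500 bp. K303R higher calls numbered 0 to 2 and lower calls 0 to 3 without a library. K303R higher calls were 0 with scaling by all peaks or the summit nearest the strongest, 9 with quantile normalization, 1 with a pseudocount of 1, the −log10 q filter or a 500 bp limit, and 4 without Y537S. K303R lower calls were 0, 0 and 7 with scaling by all peaks, nearest summit and quantile normalization, and 1 with the members' scaling or the −log10 q filter. Members whose Dox shift differed between lines numbered 0 to 41 without a library. They were 292, 12 and 0 under the 3 scalings in the same order, 73 with the nearest summit, 5 with the −log10 q filter, 48 within 2500 bp, 9 with summits within 250 bp in every file, 74 without WT, and 0 without Y537S or K303R. The causes were not tested. Groupings by GC share and by level, and the mean in place of the median, were chosen after seeing the data. Of the named members' Dox calls under alternatives, 746 held, 194 were lost and 5 gained (all of KDM4B), with no change of sign; for Y537S 177 held and 12 were lost, and for K303R 40 and 38. The labels give no numbered replicates; a fit chosen after seeing the data, with the 6 pairs matched on line and E2 as a block, called 401 rises and 60 falls with Dox, and changed no direction. Depth limits the weakest libraries, where 1 fragment moved a median member by 0.14 (log2).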
